A study of Mus musculus with 127 samples.

Results

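10 genes of the circadian clock and its output were followed through 127 single cells: Tef, Dbp, Hlf, Nfil3, Per1, Per2, Per3, Nr1d1, Nr1d2 and Clock. They are 10 of the 53465 genes of the deposited count table, found by matching its Ensembl identifiers to mouse symbols. The group was drawn up around Tef, because Tef had been seen lower in vehicle-treated 97Q neurons and higher with RGFP109. Its own differences are therefore given as values with no p, and the other 9 genes were listed for their place in the same pathway. The work is a Patch-seq study of Huntington's disease, in which the content of a neuron is drawn into the recording pipette after electrophysiology and its RNA is sequenced.

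Striatal neurons of newborn C57BL/6 mice (P0-P1) were grown on small islands of cortical astrocytes of mice of the same age. Lentiviruses gave them exon 1 of human HTT, the huntingtin gene, fused to GFP, with 25 glutamines (25Q, genotype labelled wild type) or an expanded tract of 97 (97Q, labelled mutant). RGFP109, an inhibitor of histone deacetylases 1 and 3, was given at 100 nM from day 6 in vitro (DIV 6) and renewed every 3 days, and vehicle cultures received DMSO on the same days. With vehicle, 29 neurons carried 25Q and 26 carried 97Q. With RGFP109 the numbers were 23 and 26, and cells of these 4 groups came from each of batches 1, 2 and 3. A further 9 vehicle-treated neurons had a lentivirus without the insert (empty vector), and 14 were untreated cortical astrocytes, both from batch 3 alone. Neurons with empty vector and astrocytes are labelled wild type. All cells were taken at DIV 15. The labels give no clock time of collection, no synchronizing treatment, no promoter for the virus, and no animal or culture for a cell. The count table lists mouse genes, so the transgene was not analysed here.

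The circadian clock is a feedback loop of transcription. CLOCK and its partner BMAL1 bind E-boxes and switch on the Per and Cry genes, whose proteins return to the nucleus and inhibit them. The same heterodimer drives Nr1d1 and Nr1d2, which encode the repressors REV-ERB alpha and beta, and the PAR bZIP activators Dbp, Tef and Hlf, which bind D-boxes in output genes and in some clock genes. Nfil3 encodes E4BP4, a repressor of the same D-boxes. Rhythms of these genes are known in most mammalian tissues, brain and astrocytes included, and mice that lack all 3 PAR bZIP genes have epileptic seizures.

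Expression is given in CPM, the counts of a gene per 1000000 counts of its cell or sum of cells. Counts were added over all cells sharing group and batch, which gave 12 sums of 3 to 15 neurons and of 8665881 to 76217208 counts, and the batch was the replicate (n = 3 per group). Single cells had 999700 to 9263305 counts. Differences are log2 fold changes with standard errors (SE) from edgeR's quasi-likelihood test, adjusted by Benjamini-Hochberg over 15247 genes, with a batch term. Because no animal or culture is named, these p-values measure only how a difference varied between batches. No gene of the table passed an adjusted p of 0.05 in any of the 5 contrasts (0.0% called), while 377 to 604 genes per contrast had an unadjusted p under 0.05. DESeq2 called 75 to 278 genes per contrast, limma-voom 0 to 3, and edgeR without the filter on low counts 0 to 3. The GABAergic enzymes Gad1 and Gad2 were counted in all 113 neurons. The summed CPM of 16 astrocyte markers was 327 to 1674 in the 12 sums, 663 in the empty vector sum and 16116 in the astrocyte sum. The part of these transcripts in the results below was not tested, and several members had other levels in the 13 neurons richest in them, as given for Tef, Dbp and Nr1d1 below and for the others at the end.

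Upstream sequences are shown for the 5 genes whose vehicle sums did not overlap between 97Q and 25Q (below). Motifs of clock factors and the cAMP response element were looked for in them. RefSeq's table (GRCm38.p6) had 13 start sites for 9 of the 10 genes, and the 250 bases before each were searched on both strands. Capitals mark every match. The motifs were the E-box CACGTG, the E-prime box CACGTT, the D-boxes TTATGTAA, TTATGCAA and TTACGTAA, the cAMP response element TGACGTCA and the REV-ERB and ROR response element. E-box, response element and TTACGTAA read the same on both strands, and no match overlapped another.
Tef, chr15:81811164-81811413, plus strand: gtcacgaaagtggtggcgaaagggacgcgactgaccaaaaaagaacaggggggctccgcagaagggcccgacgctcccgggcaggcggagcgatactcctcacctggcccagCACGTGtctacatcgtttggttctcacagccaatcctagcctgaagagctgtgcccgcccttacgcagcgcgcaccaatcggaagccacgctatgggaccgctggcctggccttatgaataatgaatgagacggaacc
Hlf, chr11:90390918-90391167, minus strand: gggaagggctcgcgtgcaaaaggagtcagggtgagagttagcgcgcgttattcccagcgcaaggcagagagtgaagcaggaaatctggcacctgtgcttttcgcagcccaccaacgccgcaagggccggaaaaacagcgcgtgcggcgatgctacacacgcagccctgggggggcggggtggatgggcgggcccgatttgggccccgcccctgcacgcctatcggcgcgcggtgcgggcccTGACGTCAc
Per1, chr11:69098699-69098947, plus strand: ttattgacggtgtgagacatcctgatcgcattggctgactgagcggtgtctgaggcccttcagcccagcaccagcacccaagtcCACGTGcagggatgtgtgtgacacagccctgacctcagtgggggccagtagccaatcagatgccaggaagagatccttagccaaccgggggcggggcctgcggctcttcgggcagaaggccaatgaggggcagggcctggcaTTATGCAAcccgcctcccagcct
Per3, chr4:151044666-151044915, minus strand: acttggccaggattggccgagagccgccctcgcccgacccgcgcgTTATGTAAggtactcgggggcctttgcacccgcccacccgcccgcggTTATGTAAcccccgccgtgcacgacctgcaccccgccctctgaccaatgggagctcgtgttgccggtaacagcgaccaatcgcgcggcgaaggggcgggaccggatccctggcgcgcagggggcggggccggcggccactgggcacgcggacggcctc
Nr1d1, chr11:98775378-98775627, minus strand: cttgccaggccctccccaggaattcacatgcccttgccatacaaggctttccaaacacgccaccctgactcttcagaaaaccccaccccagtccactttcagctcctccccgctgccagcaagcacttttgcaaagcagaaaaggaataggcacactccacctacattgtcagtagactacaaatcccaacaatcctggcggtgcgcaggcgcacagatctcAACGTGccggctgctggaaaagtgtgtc
The Tef window before the second RefSeq start holds an E-box whose 5′ end lies 138 bases before the start. The window before the other Tef start, at chr15:81802423-81802672, also holds one, 127 bases before the start. It lies wholly inside annotated exon and is not printed. Per1 has an E-box 166 bases and a D-box TTATGCAA 24 bases before the start, and the Per1 line stops at the first annotated exon base. Per3 has the D-box TTATGTAA in 2 copies, 205 and 158 bases before its start. Hlf has a cAMP response element 9 bases before its start, and Nr1d1 an E-prime box, on the other strand, 28 bases before.

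Of all 32851 windows of this length in the table, 6.02% held the E-box, 3.85% the E-prime box, 0.819% TTATGTAA, 0.694% TTATGCAA and 1.55% the response element. TTACGTAA (0.113%) and the REV-ERB and ROR element (0.177%) were in none of the 13 windows. The windows of Dbp, Nfil3, Nr1d2 and Clock and the other Per1 start held no match, and Per2 had no entry. These matches describe letters only, since binding was not measured here.

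Per kilobase of exon, the median of Tef over the 12 sums was 13.1 CPM per kilobase, followed by Nr1d2 (11.6), Nr1d1 (7.95), Clock (7.70), Nfil3 (6.52) and Dbp (6.06). Per1 (2.05), Per3 (1.35), Hlf (1.01) and Per2 (0.258) were the scarcest. Neighbours in this order overlapped over the 12 sums, as Tef ran from 2.01 to 32.1 and Nr1d2 from 2.61 to 32.1 CPM per kilobase. The order differed between groups. Tef had the highest mean in 25Q vehicle (22.1 CPM per kilobase) and 97Q RGFP109 (16.0), while Nr1d2 led in 25Q RGFP109 (15.8 against 15.1 for Tef) and in 97Q vehicle (9.47). In 97Q vehicle the mean of Tef, 5.28, also lay below those of Nfil3 (7.37), Dbp (6.06) and Clock (5.89). All 10 genes passed the filter on low counts. Clock had a count in 102 and Tef in 100 of the 104 transgene neurons, against 49 for Hlf, 49 for Nfil3 and 40 for Per2.

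Tef (ENSMUSG00000022389, chr15:81802421-81826863, plus strand) encodes thyrotroph embryonic factor, a PAR bZIP activator. In 25Q vehicle its level was 156, 253 and 114 CPM in batches 1, 2 and 3. In 97Q vehicle it was 69.9, 39 and 15.8 CPM. Every 97Q vehicle sum lay below every 25Q vehicle sum, and 97Q vehicle was the lowest of the 4 groups in each of the 3 batches. With RGFP109, 97Q neurons had 231, 92.8 and 53.8 CPM, and 25Q neurons had 160, 150 and 45.4 CPM. The 2 drug groups overlapped with each other, and each overlapped with its vehicle group. Batch 3 held the lowest sum of every group.

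The means of Tef over the 3 batches were, in falling order, 174 ± 71.4 CPM (SD, n = 3) in 25Q vehicle, 126 ± 92.9 in 97Q RGFP109, 119 ± 63.5 in 25Q RGFP109 and 41.5 ± 27.1 in 97Q vehicle. Only the first and last of this order were without overlap. The log2 fold change was -2.36 (SE 0.413) for 97Q vehicle against 25Q vehicle, with within-batch differences of log2(CPM + 1) of -1.15, -2.67 and -2.77. It was 1.70 (SE 0.399) for 97Q RGFP109 against 97Q vehicle, with 1.71, 1.23 and 1.71 by batch. Tef was thus higher with the drug in all 3 batches of 97Q neurons. In 25Q neurons the drug difference was -0.76 (SE 0.393), with 0.035, -0.75 and -1.30 by batch. Under the drug, 97Q and 25Q neurons differed by 0.11 (SE 0.390). The difference between the drug differences was 2.46 (SE 0.559), with 1.67, 1.98 and 3.01 by batch. Since these contrasts share groups and Tef was chosen for them, they are one pattern described from several sides.

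The same order stood in the single cells. The median neuron had 129 CPM of Tef in 25Q vehicle (range 0 to 509), 73.4 in 97Q RGFP109 (0 to 432), 53.9 in 25Q RGFP109 (0.144 to 571) and 12.9 in 97Q vehicle (0 to 166). At least 10 CPM was found in 25 of 29 neurons of 25Q vehicle (86.2%, exact 95% interval 68.3 to 96.1) and in 14 of 26 of 97Q vehicle (53.8%, 33.4 to 73.4). The share was 17 of 23 in 25Q RGFP109 (73.9%, 51.6 to 89.8) and 21 of 26 in 97Q RGFP109 (80.8%, 60.6 to 93.4). These intervals treat neurons as independent although they share 3 batches, so they leave out the spread between batches. The Poisson intervals of counts treat reads as independent molecules, which is not assured without molecular identifiers, and may be too narrow. A count of Tef was found in 24 of 26 neurons of 97Q vehicle and in 28 of 29 of 25Q vehicle.

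**Figure D1:**
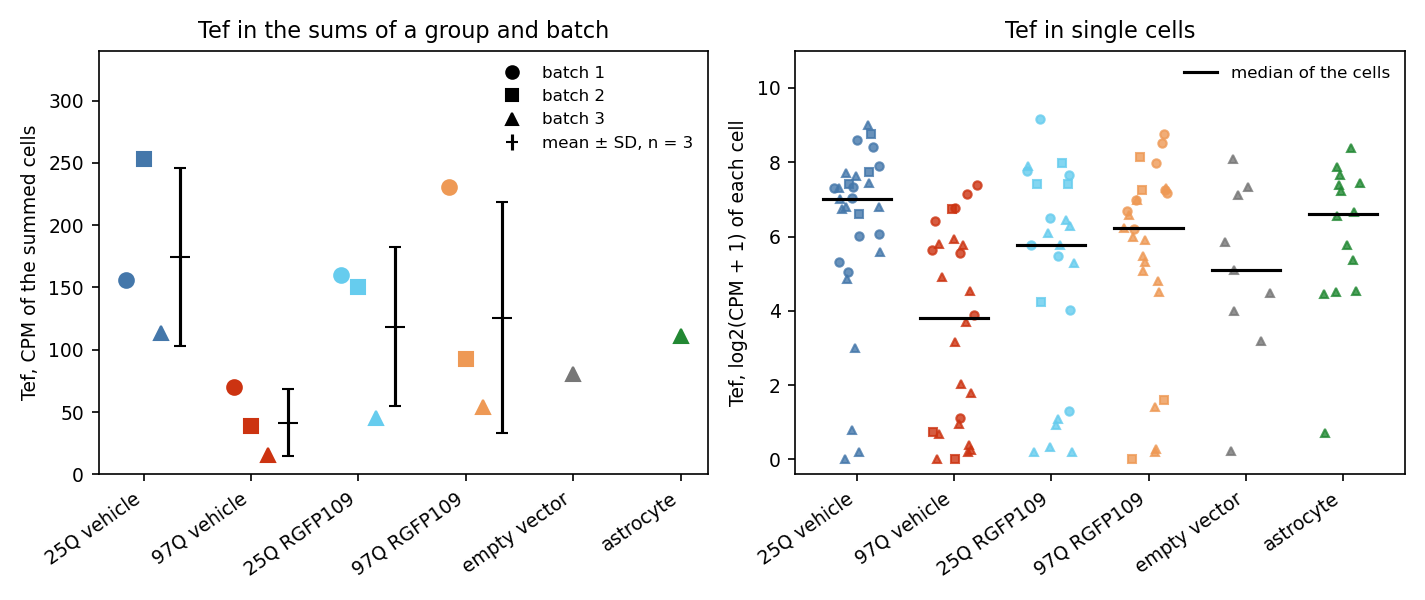
Tef in each group. Left, CPM of the summed cells of a group, 1 point per batch, with the mean and SD where n = 3; right, log2(CPM + 1) of every cell, with the median as a line. The 3 sums of 97Q vehicle lie between 15.8 and 69.9 CPM, below all 25Q vehicle sums.

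Single neurons weighed on Tef in batch 2, the smallest batch. There, 99.4% of the 338 Tef counts of 97Q vehicle came from 1 of 3 neurons, numbered cell 10. Without it the mean within-batch difference to 25Q vehicle went from -2.20 to -3.82 and that of the drug in 97Q neurons from 1.55 to 3.17. No neuron left out alone turned either sign. The neurons rich in astrocyte markers had a median of 106 CPM of Tef against 54.8 in the other 91, and without them the drug difference in 97Q neurons was 2.11 and the interaction 3.09. With the mean of log2(CPM + 1) over cells in place of sums, the vehicle difference was -3.09 and the interaction 3.10. Tef shares 193 bases of exon with the antisense gene Gm17597, and whether counting used strand is not given in the sources used here, so reads of the pair cannot be told apart there. With vehicle, Gm17597 held 5 counts in 25Q and 409 in 97Q neurons, beside 16916 and 3954 counts of Tef. With RGFP109 it held 418 and 122, beside 8963 and 11583 of Tef.

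Dbp (ENSMUSG00000059824, chr7:45705088-45710203, plus strand) encodes the D-box binding protein, a PAR bZIP factor and direct target of CLOCK. Its levels in batches 1, 2 and 3 were 52.6, 20.1 and 5.14 CPM in 25Q vehicle and 26.1, 25.5 and 2.78 CPM in 97Q vehicle. They were 31.1, 16.2 and 7.10 CPM in 25Q RGFP109 and 20.7, 2.55 and 5.89 CPM in 97Q RGFP109. All groups overlapped, and the batches stood further apart than the groups, with mean levels of 32.6, 16.1 and 5.23 CPM in batches 1, 2 and 3. The 97Q vehicle neurons differed from 25Q vehicle by -0.44 (SE 0.891) and the drug difference in 97Q neurons was -0.64 (SE 0.943). The 13 neurons rich in astrocyte markers had a median of 30.3 CPM of Dbp against 2.68 in the other 91, and without them the vehicle difference was -0.98. Dbp shares 539 bases of exon with Sphk2 on the other strand, whose own difference in vehicle was 0.018 (SE 0.692).

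Hlf (ENSMUSG00000003949, chr11:90336536-90390895, minus strand) encodes hepatic leukemia factor. In 25Q vehicle it stood at 58.7, 20.6 and 20.5 CPM. In 97Q vehicle it stood at 2.40, 0 and 2.42 CPM, where the 0 of batch 2 allows up to 0.426 CPM (exact 95% Poisson bound). All 3 sums of 97Q vehicle lay below those of 25Q vehicle, with a log2 fold change of -4.40 (SE 1.83), a raw p of 0.0380 and an adjusted p of 0.968 in edgeR's quasi-likelihood test. It was -3.53 without batch 2, -6.27 without batch 3 and -2.42 on the mean of log2(CPM + 1) over cells. A count was found in 20 of 29 neurons of 25Q vehicle (69%, exact 95% interval 49.2 to 84.7) and in 9 of 26 of 97Q vehicle (34.6%, 17.2 to 55.7). With every neuron thinned to 900000 counts, Hlf was detected in 58.6% and 23.1%.

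With RGFP109, Hlf was at 16.3, 21.9 and 0.821 CPM in 25Q neurons and at 10.8, 0.387 and 2.65 CPM in 97Q neurons. The drug difference in 97Q neurons was 1.13 (SE 1.61), above 0 in each batch but with only 5 counts behind the batch 2 sum. In 97Q vehicle, 92.0% of the Hlf counts of batch 1 came from cell 4 and 94.4% of those of batch 3 from cell 24. In 25Q vehicle batch 2, 99.7% came from cell 14, and without that neuron the mean within-batch difference went from -3.74 to -2.30. Hlf was detected in the largest share of neurons in 25Q vehicle, and 1 neuron held most of its counts in several of the other sums.

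Nfil3 (ENSMUSG00000056749, chr13:52967209-52981073, minus strand), the D-box repressor, had no common direction. It was at 8.11, 11.6 and 19.6 CPM in 25Q vehicle and at 21.5, 23.2 and 0.090 CPM in 97Q vehicle. It was at 16.9, 11.0 and 0.019 CPM in 25Q RGFP109 and at 18.1, 0.077 and 14.9 CPM in 97Q RGFP109. In 3 of the 12 sums it all but vanished, resting on 6 counts in 97Q vehicle batch 3, on 1 in 25Q RGFP109 batch 3 and on 1 in 97Q RGFP109 batch 2. The 97Q vehicle difference was -0.48 (SE 2.48), above 0 in batches 1 and 2 and -4.24 in batch 3. Leaving out batch 3 turned it to 0.90.

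Per1 (ENSMUSG00000020893, chr11:69095217-69109960, plus strand) encodes a PERIOD repressor that is also induced by neuronal activity. It stood at 16.2, 22.9 and 22.0 CPM in 25Q vehicle and at 5.96, 7.39 and 12.2 CPM in 97Q vehicle. These sums did not overlap, and each batch had less in 97Q neurons. The log2 fold change of -1.38 had an SE of 1.05 and an adjusted p of 0.968 in edgeR's test, so it stayed within the spread the model allows. With RGFP109, 25Q neurons had 18.5, 15.2 and 6.51 CPM and 97Q neurons 6.83, 0.773 and 10.9 CPM, a drug difference in 97Q neurons of -0.56 (SE 1.06). Under the drug the 97Q sum lay below the 25Q sum in batches 1 and 2 and above it in batch 3, so those groups overlapped.

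Per3 (ENSMUSG00000028957, chr4:151003652-151044665, minus strand), the PERIOD gene with the paired D-box shown above, stood nearest to Tef among the PERIOD genes. It was at 25.1, 73.7 and 13.8 CPM in 25Q vehicle and at 12.1, 4.04 and 2.79 CPM in 97Q vehicle. All 97Q vehicle sums lay below all 25Q vehicle sums. The log2 fold change was -2.77 (SE 1.02), with a raw p of 0.0228 and an adjusted p of 0.968 in edgeR's test. It was -3.54 (raw p 0.0595) without batch 1 and -1.69 (raw p 0.0808) without batch 2. DESeq2 gave -2.79 with an adjusted p of 0.0246. That was the only adjusted p under 0.05 of a tested member among the 35 member results followed through 11 alternatives. In 25Q RGFP109 Per3 was at 14.6, 17.0 and 7.50 CPM, below 25Q vehicle in each batch (-1.49, SE 0.958). In 97Q RGFP109 it was at 18.9, 2.78 and 3.33 CPM, and the drug difference in 97Q neurons was 0.36 (SE 0.926). In 25Q vehicle batch 2, 71.5% of the counts came from cell 13.

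Per2 (ENSMUSG00000055866, chr1:91415982-91459324, minus strand) was the scarcest member, at 11.0, 0 and 0.639 CPM in 25Q vehicle and 4.33, 0.346 and 2.39 CPM in 97Q vehicle. It was at 0.511, 0.288 and 5.14 CPM in 25Q RGFP109 and at 0.147, 5.80 and 7.07 CPM in 97Q RGFP109. Its counts came from few neurons, with 85.4% of all 25Q vehicle counts from cell 4 and 91.7% of all 25Q RGFP109 counts from cell 22. No direction held between groups, and the SE of its differences in the vehicle and drug contrasts ran from 2.43 to 3.34.

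Nr1d1 (ENSMUSG00000020889, chr11:98767932-98775333, minus strand) encodes REV-ERB alpha, which represses Arntl (Bmal1) and Nfil3. It stood at 55, 27.0 and 74.8 CPM in 25Q vehicle and at 12.7, 16.3 and 11.6 CPM in 97Q vehicle. The 2 groups did not overlap, and 97Q vehicle had the narrowest spread of the 4 groups, 13.5 ± 2.44 CPM (SD, n = 3). The log2 fold change was -1.52 (SE 1.15), with an adjusted p of 0.968 in edgeR's test. It was -2.35 without batch 2 and -2.14 without the 13 neurons rich in astrocyte markers, in which the median of Nr1d1 was 32.6 CPM against 6.99 in the other 91. In RGFP109 the sums were 48.9, 8.25 and 86.0 CPM in 25Q neurons and 21.9, 0.232 and 51.9 CPM in 97Q neurons. The drug difference in 97Q neurons was -0.24 (SE 1.28), but it was 0.74 in batch 1, 2.07 in batch 3 and -3.81 in batch 2, where 97Q RGFP109 rests on 3 counts. Without batch 2 the difference was 1.43 (raw p 0.0191, adjusted p 0.958 in edgeR's test).

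In 25Q vehicle batch 2, 95% of the Nr1d1 counts came from cell 14, and the vehicle difference went from a mean of -1.77 to -0.72 without it. With every neuron thinned to 900000 counts the vehicle sums of Nr1d1 overlapped, while those of Tef, Hlf, Per1 and Per3 did not. Nr1d1 shares 263 bases of exon with Thra on the other strand, whose difference in vehicle was -0.21 (SE 0.542).

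Nr1d2 (ENSMUSG00000021775, chr14:18204054-18239127, minus strand) encodes REV-ERB beta. It was at 91.2, 113 and 27.6 CPM in 25Q vehicle and at 58.5, 67.2 and 28.1 CPM in 97Q vehicle, with a difference of -0.49 (SE 0.536). It was at 110, 107 and 38.6 CPM in 25Q RGFP109 and at 174, 38.0 and 14.1 CPM in 97Q RGFP109. Batch 3 was the lowest in all 4 groups, as for Tef, and no contrast stood out. Its closest relative Nr1d1, in contrast, had its highest sum in batch 3 in 3 of the 4 groups.

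Clock (ENSMUSG00000029238, chr5:76209868-76304792, minus strand) encodes the activator at the head of the loop, and its highest and lowest sums differed by the smallest ratio among the members. It was at 98.2, 118 and 142 CPM in 25Q vehicle, 86.5, 33.5 and 122 in 97Q vehicle, 112, 98.1 and 107 in 25Q RGFP109 and 133, 60.9 and 104 in 97Q RGFP109. The 97Q vehicle difference was -0.72 (SE 0.419), below 0 in each batch but -0.18 and -0.21 in batches 1 and 3 and -1.78 in batch 2. Without cell 13 of 25Q vehicle batch 2, which held 73.2% of that sum's Clock counts, the mean within-batch difference went from -0.72 to -0.19.

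**Figure D2:**
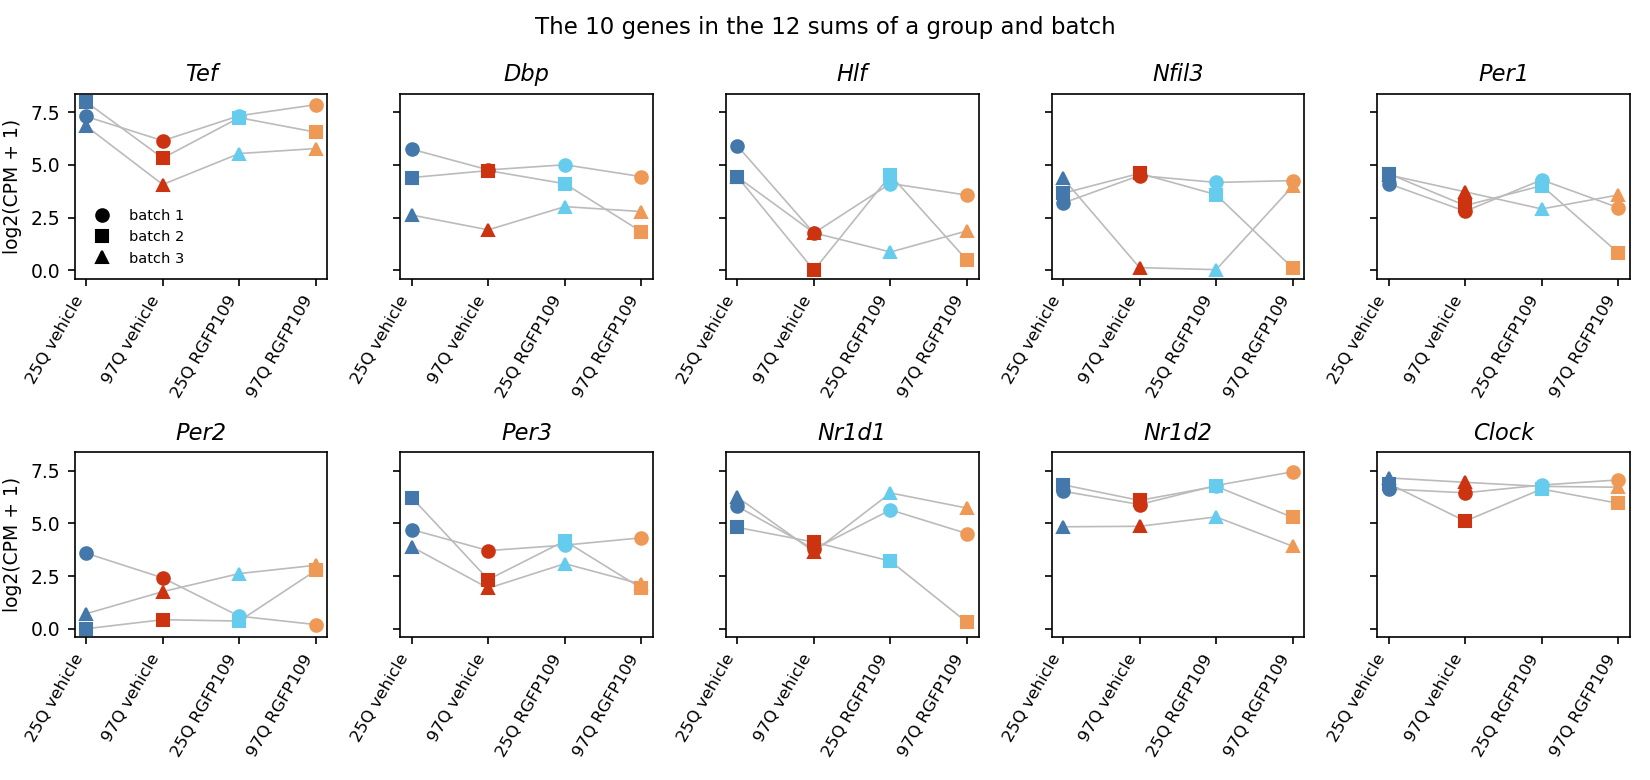
The 10 genes in the 12 sums, as log2(CPM + 1), with a grey line joining the 4 groups of a batch and the marker shape giving the batch. Tef dips in 97Q vehicle in every batch, while Dbp and Nr1d2 are set apart mainly by batch, and Nfil3 and Per2 fall near 0 in single sums.

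For 97Q vehicle against 25Q vehicle, all 10 log2 fold changes were below 0, with a median of -1.05 over the 10 genes and of -0.72 over the 9 other than Tef. The common sign belongs to the main fit. Nfil3 and Per2 were each higher in 2 of 3 batches, and they reversed in 2 and 3 of 11 alternatives. Over all 15247 genes the median was 0.056 and 47.7% were below 0. For 5 genes, Tef among them, the 97Q sums lay lower without overlap, as for 4.69% of all genes (3.76% lay higher without overlap). The others of these 5 were Hlf, Per1, Per3 and Nr1d1. In 6 genes, those 5 and Clock, 97Q was lower in all 3 batches, as in 13.2% of all genes, and no member was higher in all 3 (15.7% of all genes). None of the 9 tested members passed the adjusted threshold in edgeR, and 2 had a raw p under 0.05, as had 3.96% of all genes. Members share a pathway and the same cells, so they are not independent observations. The counts describe a set drawn up around a gene that was low in this same contrast.

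For RGFP109 against vehicle in 97Q neurons, 6 of the 9 genes other than Tef were higher and 3 lower, with a median of 0.17, against -0.041 over all genes. Only Tef and Hlf were higher in all 3 batches, which 9.63% of all genes were. No member was lower in all 3 batches (14.1% of all genes). No member was without overlap, against 2.77% of all genes higher and 3.4% lower. The lowest raw p of the 9 was 0.304 and the lowest adjusted p 0.999 (edgeR's quasi-likelihood test). The SE of the drug differences of Per1 and Nr1d1 (1.06 and 1.28) leaves room for a change in either direction.

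For RGFP109 against vehicle in 25Q neurons, 9 of the 10 genes were lower, with a median of -0.54 against 0.0017 over all genes. Of the 9 other than Tef, 8 were lower, with a median of -0.49. Only Nr1d2 was higher, at 0.21 (SE 0.534). Per3 alone was lower in all 3 batches, as were 13.9% of all genes, and none was higher in all 3 (12.2%). No member was without overlap (2.88% of all genes higher, 3.84% lower). The other differences were -0.23 (SE 0.888) for Dbp, -1.01 (SE 1.65) for Hlf, -1.18 (SE 2.46) for Nfil3, -0.58 (SE 1.04) for Per1, -0.065 (SE 3.34) for Per2, -0.49 (SE 1.13) for Nr1d1 and -0.18 (SE 0.411) for Clock. None passed the test, where the lowest raw p was 0.152.

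**Figure D3:**
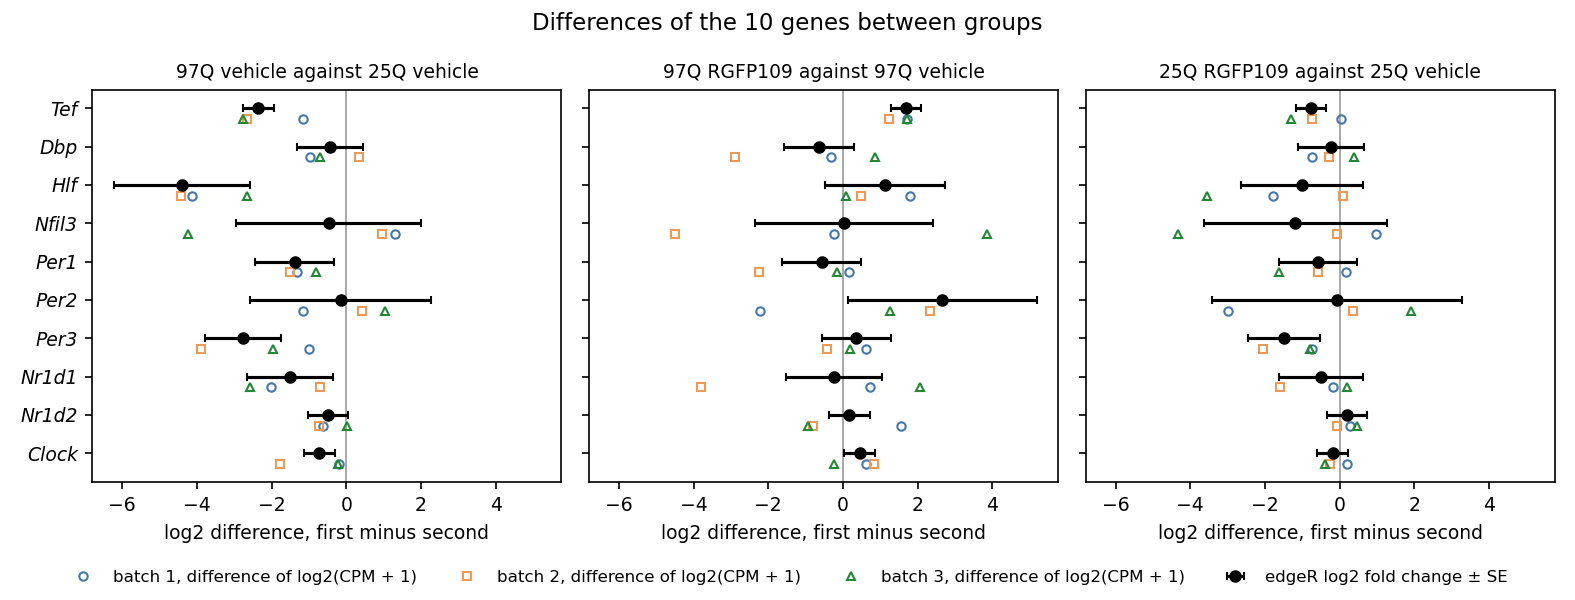
Log2 differences of the 10 genes in 3 contrasts. Black points are edgeR log2 fold changes with SE, and open symbols are the differences of log2(CPM + 1) within a batch. In 97Q vehicle against 25Q vehicle every black point lies below 0, and Tef has the smallest SE, 0.413. Dbp, Nfil3, Per2 and Nr1d2 have open symbols above 0 there.

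Between 97Q and 25Q neurons that both had the drug, 7 of the 10 genes were lower in 97Q, with a median of -0.69 against 0.00083 over all genes. Of the 9 other than Tef, 7 were lower, with a median of -0.85. Dbp and Nr1d1 were lower in all 3 batches, as were 13.3% of all genes, and none was higher in all 3 (13.2%). No member was without overlap (3.57% of all genes higher, 3.58% lower). In the interaction, which sets the drug difference of 97Q against that of 25Q, 8 of the 10 genes were above 0, with a median of 0.92 against -0.045 over all genes. Leaving out Tef, which was chosen for this pattern, 7 of 9 were above 0, with a median of 0.64. Tef, Hlf, Per3 and Clock were above 0 in all 3 batches, as were 12.1% of all genes, and none below 0 in all 3 (13.7%). The values were 2.14 (SE 2.25) for Hlf, 1.85 (SE 1.32) for Per3 and 0.64 (SE 0.584) for Clock. None of the 9 tested members passed in edgeR, and none had a raw p under 0.05. The 4 groups enter several contrasts at once, so these counts are not separate pieces of evidence.

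Of 13 core clock partners, 10 passed the filter on low counts and were tested. In 97Q vehicle against 25Q vehicle, 8 were lower and 2 higher, with a median of -0.52. None passed edgeR's threshold, and 1 had a raw p under 0.05, as had 3.96% of all genes. Bhlhe41, which encodes the E-box repressor DEC2, had 11.5 CPM in 97Q vehicle and 115 in 25Q vehicle on average (-3.29, SE 0.875, raw p 0.00414, adjusted p 0.968 in edgeR's test). DESeq2 gave it an adjusted p of 0.00545. The difference was -4.13 without batch 1 and -4.50 without the neurons rich in astrocyte markers. Ciart, a repressor also known as CHRONO, differed by -1.55 (SE 0.815). Bhlhe41 was lower with RGFP109 in 25Q neurons as well (-1.94, SE 0.844, raw p 0.0459; -1.04 without batch 2), in all 3 batches, but did not pass adjustment (1.0 in edgeR's test).

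In the same drug contrast of 25Q neurons, Ciart differed by -0.61 (SE 0.801), Bhlhe40 by -0.57 (SE 1.16) and Tipin by -0.45 (SE 0.411). With the drug in 97Q neurons 5 of these 10 partners were higher and 5 lower. Arntl, which encodes BMAL1, differed by 1.22 (SE 0.960), the ROR receptor gene Rora by 1.04 (SE 0.988) and Tipin by -0.79 (SE 0.415). All 16 genes for the turnover of PER and CRY proteins were tested, and 10 were higher and 6 lower in 97Q vehicle (median 0.12). The phosphatase subunit genes Ppp1cb and Ppp1ca differed by -0.65 (SE 0.466) and 0.24 (SE 0.289), and the F-box gene Btrc by -0.15 (SE 0.355). None passed edgeR's test, and none had a raw p under 0.05.

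Of 18 genes known for rhythmic or glucocorticoid-linked expression or as PAR bZIP targets, 16 were tested (not Lonrf3 and Prok2), with 8 higher and 8 lower in 97Q vehicle and a median of 0.071. Usp54 differed by 2.86 (SE 1.33), the TGF-beta response gene Klf10 by -1.43 (SE 1.27), the fatty acid binding protein gene Fabp7 by 1.03 (SE 0.606; 0.23 without the neurons rich in astrocyte markers) and Nampt, of NAD synthesis, by -0.98 (SE 0.684). None had a raw p under 0.05. Between the drug groups, Id2 averaged 81.9 CPM in the 97Q group and 408 CPM in the 25Q group (-2.30, SE 0.616, raw p 0.00429, adjusted p 0.999 in edgeR's test and 0.0347 in DESeq2). In the interaction, Fabp7 stood at -2.06 (SE 0.854, raw p 0.0382, adjusted p 0.999 in edgeR's test). Whether the 3 lists and the members differ from each other was not tested.

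Over the 12 sums, with the mean of each batch taken off, the genes most like Tef were Gm29585 (Pearson r 0.905), Iqsec3 (0.885), Trim62 (0.880), Trpc7 (0.877) and Gm44686 (0.871). The median r of the other 15246 genes with Tef was -0.024. Iqsec3, which encodes an exchange factor of inhibitory synapses, had mean levels of 64.8 CPM (25Q) and 6.71 CPM (97Q) with vehicle, and 23.3 and 18.1 CPM with RGFP109. Trim62 had 29.7, 8.95, 29.2 and 21.6 CPM in the same order. Within the set, r with Tef was 0.754 for Per3, 0.749 for Clock, 0.735 for Hlf, 0.456 for Nr1d1, 0.424 for Per1, 0.415 for Nr1d2, 0.318 for Nfil3, 0.124 for Dbp and -0.321 for Per2. The sums share libraries and the groups Tef was chosen on, so these values carry no p.

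Neuron by neuron the genes were only loosely tied. Over the 104 neurons, Spearman's rho with Tef was 0.357 for Dbp and 0.334 for Hlf. After the mean log2(CPM + 1) of each group and batch was subtracted, rho over the same neurons was 0.217 and 0.158. Across the 45 pairs of members the median rho was 0.0986, with a range of -0.135 to 0.373. Neurons share depth and detection limits, so these are descriptions. The median neuron had a count in 8 of the 10 genes in 25Q vehicle, in 7.5 in 97Q vehicle and in 7 with RGFP109 in either group. Thinned to 900000 counts, the medians were 8 (25Q) and 6 (97Q) with vehicle, and 6 and 5.5 with RGFP109.

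Batch 3 allows the members to be set beside neurons with no huntingtin insert and beside astrocytes, with 1 sum each and so no test. Tef was at 80.5 CPM in empty vector neurons (exact 95% Poisson interval 77.8 to 83.2) and at 111 CPM in astrocytes (109 to 113), between the 15.8 CPM of 97Q vehicle and the 114 CPM of 25Q vehicle. Of the empty vector counts of Tef, 40.5% came from cell 6, and the median of the 9 neurons was 33.5 CPM. Nr1d1 was at 133 CPM in empty vector neurons and 115 in astrocytes, above the 11.6 to 86.0 CPM of the 4 transgene groups. Per2 was at 17.4 and 13.5 CPM, also above their 0.639 to 7.07, with 82.2% of the empty vector counts from cell 2. Dbp followed with 12.0 and 15.4 CPM against 2.78 to 7.10.

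Hlf was near 0 in both, at 0.351 and 0.711 CPM, against 20.5 CPM in 25Q vehicle, so the 2 kinds of control neuron stood on opposite sides of 97Q vehicle for this gene. Per1 at 40.6 CPM and Per3 at 19.4 CPM were highest in astrocytes, above all neuron sums of batch 3. Clock was the only member lower in astrocytes (61.5 CPM) than in every neuron sum of that batch (104 to 142). Nfil3 was at 13.9 CPM in empty vector neurons and 1.73 in astrocytes, and Nr1d2 at 29.2 and 31.9 CPM, within the range of the other groups.

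**Figure D4:**
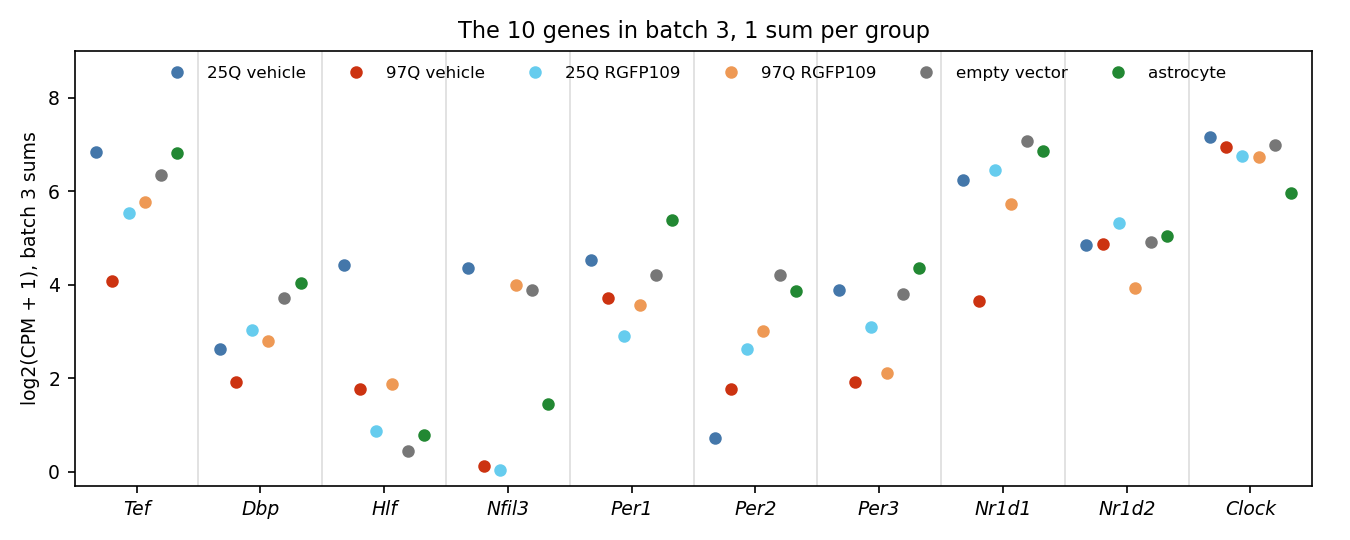
The 10 genes in batch 3 as log2(CPM + 1), 1 sum per group, with no error bars because each group has 1 sum there. Tef is lowest in 97Q vehicle (15.8 CPM), and Hlf is lower in empty vector neurons and astrocytes than in 25Q vehicle.

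Levels of other cell-type markers differed between the groups, and their part in the clock results was not tested. The summed CPM of 8 GABAergic markers was 2422 to 5295 in 25Q vehicle and 963 to 1867 in 97Q vehicle, and that of 16 striatal projection neuron markers 1038 to 4406 and 662 to 1161. With RGFP109 the GABAergic markers were at 3435 to 5100 in 25Q and at 729 to 2149 in 97Q neurons, and the projection markers at 1017 to 1374 and 691 to 1325. The 10 striatal interneuron markers were at 32.4 to 408 CPM in 25Q vehicle and 29.5 to 94.4 in 97Q vehicle. With the drug they were at 187 to 557 in 25Q and 11.7 to 52.6 in 97Q neurons, without overlap. Vip was at 0 in 25Q vehicle and in both 97Q groups. The 12 neuron markers were at 6053 to 9871 and 6962 to 9255 with vehicle, and at 7532 to 10496 and 4702 to 9538 with the drug. The 9 endothelial and mural markers summed to 99.6 to 227 CPM in 25Q vehicle and to 257 to 2347 in 97Q vehicle, where Rgs5 was at 0. With RGFP109 they were at 100.1 to 202 in 25Q neurons, with Cldn5, Kdr, Pdgfrb and Rgs5 at 0, and at 72 to 380 in 97Q neurons. The 9 oligodendrocyte lineage markers were at 21.1 to 127 CPM in 25Q and 79.4 to 315 in 97Q neurons with vehicle, and at 37.6 to 173 and 36.5 to 103 with the drug. The 8 microglial markers ran from 0.270 to 53.7 CPM in 25Q vehicle, with Cx3cr1 and Tmem119 at 0, and from 6.59 to 40 in 97Q vehicle, with P2ry12 and Tmem119 at 0. With the drug they ran from 5.14 to 16.0 in 25Q neurons, with Cx3cr1, C1qa and Tmem119 at 0, and from 9.77 to 238 in 97Q neurons, with Tmem119 at 0. The astrocyte markers overlapped between the vehicle groups, at 327 to 1674 and 533 to 969 CPM, and were at 677 to 1500 and 1081 to 1493 with the drug. In the 13 neurons rich in them and the other 91, the medians were 49.4 and 104 CPM for Clock, 4.32 and 1.14 for Per3, 6.54 and 3.02 for Per1 and 47 and 26.9 for Nr1d2. For Nfil3 they were 6.67 and 0, for Hlf 0.368 and 0, and for Per2 both were 0. Without the neurons rich in them, the same 5 members had vehicle sums without overlap, and Tef differed between the vehicle groups by -2.88.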

How the data were processed

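RNA was measured in 127 single cells drawn into patch pipettes. Per the labels' protocols, cDNA came from the SMARTer Ultra Low kit and was tagmented with Nextera XT. Molecular identifiers are not mentioned. The deposited table holds raw read counts per Ensembl gene for each cell, with no normalization. The submitters' processing notes name GRCm38 and mm10 as builds, and HTSeq 0.9.1, STAR 2.5, Trimmomatic 0.36 and FastQC as tools. Trimming and alignment settings, annotation release and strand setting: not given in the sources used here. All columns were matched to cells by the library name in the labels' description field, and 0 columns were left over. The titles gave the group of each cell.

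Cells are not replicates, so counts were summed per group and batch into 12 sums of 3 to 15 cells. Genes passed edgeR's filterByExpr and a count in at least 20% of 104 cells, which left 15247. edgeR 4.0.16 (TMM, robust quasi-likelihood, terms for group and batch, 6 residual degrees of freedom, common biological coefficient of variation 0.927) gave 5 contrasts, two-sided, Benjamini-Hochberg adjusted at 0.05. SE is the absolute log2 fold change over the square root of F. Batch values are differences of log2(CPM + 1), which shrink low values. Deviations from group means had Pearson r over genes of 0.129 to 0.192 within batch 1, 0.0977 to 0.145 within batch 2 and 0.200 to 0.298 within batch 3, against at most 0.034 between batches. The lowest pair of batch 2 fell short of 0.1. The batch number comes from the labels' description field.

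The fit was tested on simulated data for 97Q vehicle against 25Q vehicle over 15247 genes. It called 29 and 14 of 50 genes changed by 4 and -4 on the log2 scale, and 6 and 1 of 50 changed by 2 and -2. Positions and exon lengths are from GENCODE M21 (GRCm38), and upstream sequences from RefSeq (GRCm38.p6). The 10 genes and all lists were chosen with earlier results of these data known. Named genes are all members, up to 4 genes a list and contrast with the largest change among those of 1 sign in all 3 batches, and the 5 genes most like Tef. From the lists, the text gives all such genes for the vehicle contrast, the core clock ones for the drug contrasts, and otherwise those with a raw p under 0.05, a narrowing made after their values were seen. Some list genes are not reported here by name. DESeq2 1.42.0, limma 3.58.1 and other scalings, filters and cell sets served as 11 alternatives. No doublet caller was run, since each cell was picked by pipette.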

Additional observations from a re-analysis of the deposited data

How the results depend on the processing

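Of 35 member results under 11 alternatives each, 20 kept their direction throughout and 15 reversed somewhere (32 of 385 values). The 35 cover all 10 members in the vehicle contrast and both drug contrasts, and Tef alone between the drug groups. In the interaction they cover only Tef, Hlf, Per3 and Clock, which had 1 sign in all 3 batches. The other members in those last 2 contrasts were left out of this count, so it does not describe them. Tef was chosen for its differences and the interaction results for their 1 sign, which favours a kept direction. The 20 therefore do not measure how robust the set is. Tef kept its direction in the vehicle contrast, in both drug contrasts and in the interaction, and its drug difference in 97Q neurons was 2.11 without neurons rich in astrocyte transcripts. Its log2 fold change between the drug groups was -0.0098 with thinned cells and -0.12 to 0.30 with a batch left out. Its mean within-batch difference of log2(CPM + 1) between them, another measure, was -0.26 to 0.24 with a neuron left out. Against 0 calls in edgeR, DESeq2 called 216 genes for 97Q vehicle against 25Q vehicle, 107 for the drug in 97Q, 147 for the drug in 25Q, 278 between the drug groups and 75 for the interaction. Without the filter on low counts edgeR called 1 gene for the drug in 97Q and 3 between the drug groups, where limma-voom also called 3. The causes of these differences were not tested.

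Without the replicate block (no batch term), Nfil3 turned to 0.11 in the vehicle contrast and to -0.44 for the drug in 97Q, and Nr1d1 turned to 0.87 for the drug in 97Q. No member's call changed without the block. With a batch left out, the vehicle contrast ran from -3.59 to 0.90 for Nfil3 and from -1.09 to 2.68 for Per2. The drug difference in 97Q ran from -1.51 to 0.37 for Dbp, -1.81 to 3.27 for Nfil3, -0.69 to 3.79 for Per2, -1.69 to 1.43 for Nr1d1 and -0.71 to 0.80 for Nr1d2. That in 25Q ran from -0.57 to 0.019 for Dbp, -4.05 to 0.24 for Nfil3, -2.60 to 3.33 for Per2 and -1.07 to 0.098 for Nr1d1.

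With limma-voom, Per2 was 1.78 in the vehicle contrast and 1.27 for the drug in 25Q, Nr1d1 was 1.07 for the drug in 97Q and 0.086 in 25Q, and Nfil3 was -0.33 for the drug in 97Q. With mean log values over cells, Per2 was 0.28 and Btrc 0.028 in the vehicle contrast. For the drug in 97Q, Nfil3 was then -0.40, Per3 -0.11 and Nr1d2 -0.40, and for the drug in 25Q, Nr1d2 was -0.20 and Clock 0.0035. Without the filter, Nfil3 was -0.0028 for the drug in 97Q and Per2 0.0059 in 25Q. Without the rich neurons, Nr1d1 was 0.15 for the drug in 97Q, Per2 0.16 in 25Q and Ppp1ca -0.11 in the vehicle contrast. With thinned cells, Nr1d2 was -0.17 for the drug in 97Q. DESeq2 called Per3 (-2.79), Bhlhe41 (-3.33) and Id2 (-2.30). Some sums of Nfil3, Hlf, Per2 and Nr1d1 hold only 0 to 6 counts, which limits their precision.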
